A study of Mus musculus with 26 samples.

Results

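Pineoblastoma (PB) is a tumor of the pineal gland. Its RNA was set here against that of normal cerebellum for 9 genes of oligodendrocytes and of the myelin they make: Mbp, Mag, Mog, Mobp, Cnp, Cldn11, Ugt8a, Opalin and Sox10. The genes were chosen by name, and each was found by its symbol in both value tables of the study, as 1 of 19938 named genes on the Affymetrix Mouse Gene 1.0 ST arrays and 1 of 22180 on the version 2.0 arrays. A single transcript cluster, the array's unit of measurement, reported each gene on each array version.

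The study holds 26 arrays, each of 1 tumor or tissue. On version 1.0 arrays there were 11 PBs labelled Rb/p53-deleted, 5 labelled Rb/p53-mutated and 3 samples of normal cerebellum. On version 2.0 arrays there were 3 Dicer1/p53-deleted PBs, 3 Rb/Dicer1/p53-deleted PBs and 1 further Rb/p53-deleted PB, numbered PB12. Rb/p53-deleted PBs arose in mice that carried WAP-Cre with Rb flox/flox and p53 flox/flox, both alleles of each gene being removed by Cre. In Rb/p53-mutated mice 1 floxed p53 allele was replaced by a point-mutant allele behind a lox-stop-lox (lsl) cassette, so Cre switches on mutant p53 while deleting Rb. Dicer1/p53-deleted mice carried WAP-Cre with Dicer1 flox/flox and p53 flox/flox, and the Rb/Dicer1/p53-deleted mice carried Rb flox/flox as well. WAP-Cre drives recombination from the promoter of whey acidic protein, a milk gene, and its activity in the pineal gland is thought to be ectopic. All 4 tumor genotypes thus share WAP-Cre and loss or mutation of p53, and no tumor group kept both Rb and Dicer1. The floxed Dicer1 allele loses most of its second RNase III domain. The mice were of mixed background. Tumor tissue was snap-frozen, and the tumors can invade the cerebellum. Normal pineal gland was not among the samples, cerebellum was hybridised to version 1.0 arrays only, and the age, sex and genotype of the cerebellum samples are not given in the sources used here. The labels do not say that the samples came from separate animals, so the p-values measure the spread between these samples.

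Oligodendrocytes wrap axons of the brain and spinal cord in myelin, a stack of compacted membrane rich in the lipid galactosylceramide. Mbp and Mobp encode small basic proteins that hold the cytoplasmic faces of the membrane together. Mag and Mog encode immunoglobulin-family proteins of the inner and the outer surface of the sheath. Cnp encodes an enzyme of non-compact myelin, Ugt8a the enzyme that makes galactosylceramide, and Cldn11 the claudin of myelin tight junctions. Opalin encodes a membrane protein of oligodendrocytes. Sox10 encodes a transcription factor that oligodendrocytes share with Schwann cells and melanocytes.

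The deposited values are log2 signals. In the version 1.0 table the arrays differed in scale. Array medians were 7.90 to 7.97 for Rb/p53-deleted PB1 to PB10 and, overlapping with these, 7.95 to 8.01 for PB11 and the cerebellum samples, whose interquartile range was wider (3.17 to 3.25 against 2.57 to 2.87). The Rb/p53-mutated PBs had lower medians of 7.04 to 7.12. The 19 arrays were therefore brought to 1 common distribution by quantile normalization, and unless stated otherwise version 1.0 values are log2 signals on that scale. Each array then had a median of 7.72. The version 2.0 arrays had medians of 5.26 to 5.36 and were used as deposited. A difference of 1 on the log2 scale is a 2-fold difference. Of 11 pineal and photoreceptor genes, 10 were above cerebellum in the Rb/p53-deleted tumors and none was below it. Over all genes 25% were called higher and 27.7% lower. Normal pineal gland was not sampled, so these genes cannot tell tumor from normal gland.

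In the Rb/p53-deleted tumors all 9 genes were lower than in normal cerebellum, by 0.94 to 3.85 on the log2 scale, and for each gene every tumor was below every cerebellum sample. All 9 passed a false discovery rate (FDR) of 0.01 in limma over all named genes. Of all 19938 genes, 27.7% were called lower and 25% higher in this comparison, and 25.5% had every tumor below every cerebellum sample. The median difference of the 9 genes was -2.38, against 0.01 over all genes. In whole tissue, fewer cells of a type and less RNA per cell cannot be told apart.

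Among the structural proteins, Mbp was at 12.02, 11.86 and 12.01 in the cerebellum samples. In the 11 Rb/p53-deleted PBs it ranged from 8.06 in PB3 to 9.10 in PB9, with a median of 8.60. The difference was -3.33 (SE 0.19, adjusted p = 1.67e-10), a 10.05-fold lower signal, and the highest tumor lay far below the lowest cerebellum sample. Mobp was at 10.06, 9.85 and 10.25 in cerebellum and ran from 6.92 in PB2 to 7.67 in PB10, with a median of 7.01. Its difference was -3.00 (SE 0.13, adjusted p = 3.74e-12), and 10 of the 11 tumors were within 6.92 and 7.07, with PB10 standing above them.

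The surface proteins gave both the largest difference and one close to that of Mobp. Mag was at 10.83, 10.37 and 10.72 in cerebellum and at 6.49 in PB1 to 7.33 in PB11, with a median of 6.72. Its difference of -3.85 (SE 0.13, adjusted p = 3.7e-13), 14.4-fold, was the largest of the 9. Mog was 10.09 ± 0.22 (SD, n = 3) in cerebellum and 7.26 ± 0.20 (SD, n = 11) in the tumors, a difference of -2.84 (SE 0.12).

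The enzymes were less far apart. Cnp was at 11.80, 11.53 and 11.76 in cerebellum, and at 9.34 in PB1 to 10.47 in PB11 with a median of 9.47 in the tumors, a difference of -2.10 (SE 0.18, adjusted p = 3.14e-08). PB11 was the one Rb/p53-deleted tumor in which Cnp exceeded 10, the next being PB5 at 9.79. Ugt8a was at 9.63, 9.53 and 9.99 in cerebellum and at 6.94 in PB7 to 8.47 in PB2 with a median of 7.86, a difference of -1.95 (SE 0.24, adjusted p = 2e-06). It had the widest spread among the Rb/p53-deleted tumors, with an SD of 0.43. Cldn11 was 10.57 ± 0.16 (SD, n = 3) in cerebellum and 8.19 ± 0.18 (SD, n = 11) in the tumors, and Opalin 7.99 ± 0.23 and 5.77 ± 0.08. Both differences, -2.38 and -2.22, exceeded these spreads many times over.

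Sox10, the transcription factor, showed the smallest difference of the 9. It was at 8.78, 8.64 and 8.72 in cerebellum and at 7.53 in PB11 to 7.98 in PB10 with a median of 7.75, a difference of -0.94 (SE 0.08, adjusted p = 2.24e-08), 1.91-fold. The groups did not overlap, and the tumors differed among themselves by less than 0.5.

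**Figure D1:**
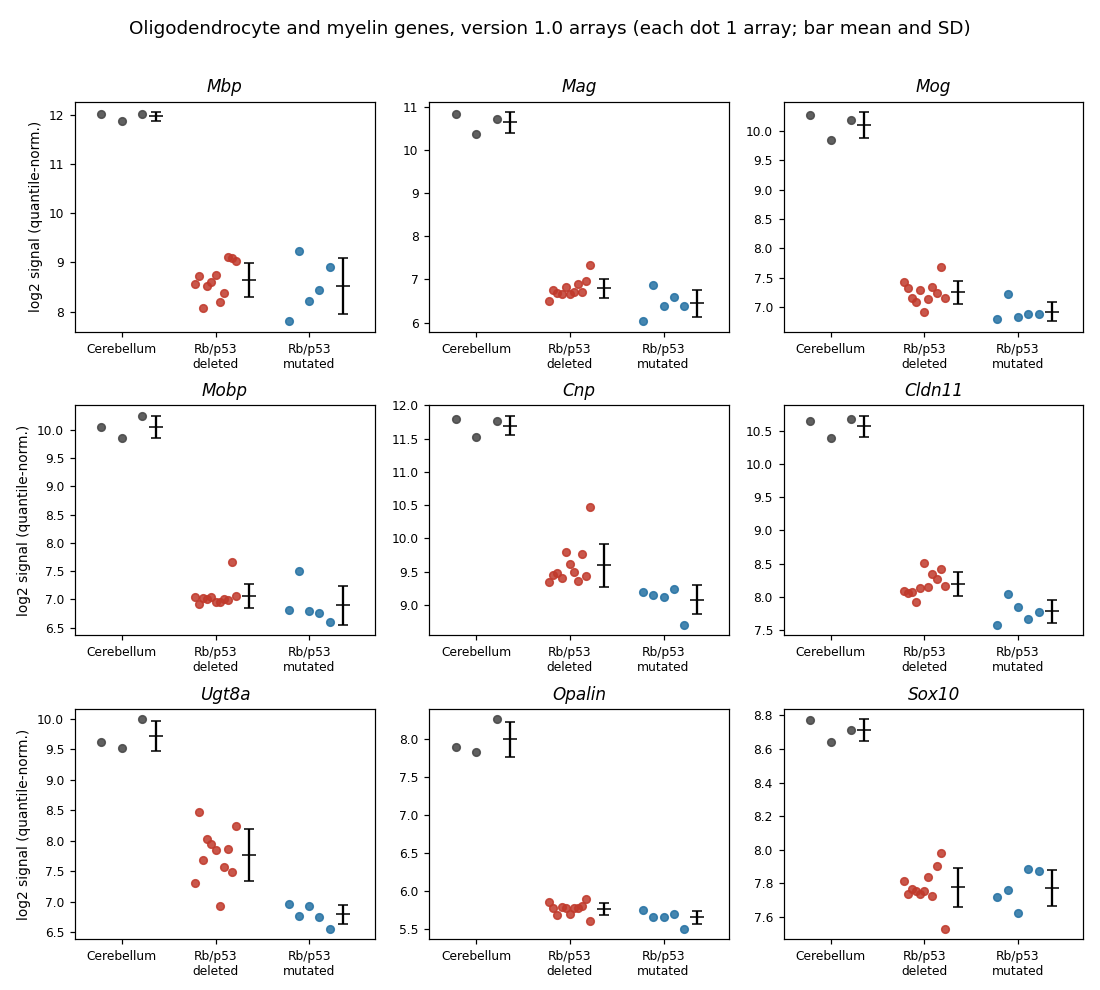
Log2 signal (quantile-normalized, y axis, own range in each panel) of the 9 genes in 3 normal cerebellum samples, 11 Rb/p53-deleted PBs and 5 Rb/p53-mutated PBs; each dot is 1 array and the bar gives the mean and SD. Every tumor lies below every cerebellum sample for all 9 genes, and PB11 (the last red dot) stands apart for Cnp at 10.47.

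The 5 Rb/p53-mutated PBs showed the same separation. All 9 genes were lower than in cerebellum at FDR 0.01, with no overlap. In this comparison 27.6% of all genes were called lower and 23.8% higher, and 34% had all 5 tumors below all 3 cerebellum samples. The comparison uses the same cerebellum arrays as that of the Rb/p53-deleted PBs. Mag was at 6.03, 6.88, 6.39, 6.59 and 6.38 in PB1 to PB5, a difference from cerebellum of -4.19 (SE 0.18, adjusted p = 6.77e-08). Mbp was at 7.80, 9.24, 8.22, 8.43 and 8.91, a difference of -3.45 (SE 0.28, adjusted p = 4.62e-06), and it was the most variable of the 9 genes among these tumors, with an SD of 0.57. Ugt8a was at 6.96, 6.76, 6.93, 6.76 and 6.56, a difference of -2.92 (SE 0.13, adjusted p = 7.78e-08). The remaining differences were -3.16 for Mog, -3.16 for Mobp, -2.79 for Cldn11, -2.62 for Cnp, -2.34 for Opalin and -0.94 for Sox10, again the smallest. On the deposited values, where the median of all genes was itself lower by 0.92 in the mutated tumors, Mbp differed by -4.54 and Mag by -5.33.

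Setting the tumor models against each other asked whether mutant p53 in place of p53 loss went with another level of these genes. Ranked by group mean, each gene was highest in cerebellum, lower in Rb/p53-deleted PBs and lowest in Rb/p53-mutated PBs (by 0.004 for Sox10), but the step between the tumor models was small and passed FDR 0.05 for 5 of the 9 genes. Over all genes 25.9% were called lower and 20.7% higher in the mutated tumors, and 8.36% had all 5 mutated tumors below all 11 deleted tumors. Ugt8a gave the largest step, -0.97 (SE 0.18, adjusted p = 0.000407), from 7.76 ± 0.43 (SD, n = 11) to 6.80 ± 0.16 (SD, n = 5). Deleted PB7, at 6.94, lay inside the range of the mutated tumors, and the other 10 deleted tumors lay above it. Cnp was lower by 0.52 (SE 0.15, adjusted p = 0.00917) and was the 1 gene of the 9 without overlap, the mutated tumors being at 9.20, 9.15, 9.11, 9.24 and 8.70 and the lowest deleted tumor at 9.34. Cldn11 differed by -0.41 (SE 0.09, adjusted p = 0.00175) and Mog by -0.33 (SE 0.10, adjusted p = 0.0128), with overlapping groups. Mag differed by -0.34 (SE 0.13, adjusted p = 0.0352). That call was lost without any 1 of 5 tumors: mutated PB1 (-0.23), PB3 (-0.32) or PB5 (-0.32), and deleted PB8 (-0.33) or PB10 (-0.32). Mag, Mog, Mobp and Opalin lay below the array median of 7.72 in all 11 deleted and all 5 mutated tumors. Opalin was below the lower quartile of 6.41 in each of them, and Mag in 3 mutated tumors. Whether such low signals exceed background was not tested.

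The order of the tumor models was not stable for 3 genes. It turned for Opalin with arrays centred on their medians, for Mbp without mutated PB1 and for Sox10 without mutated PB1 or PB3 or deleted PB7, PB9 or PB10. It turned for Mbp and Sox10 with the replicate number as a block as well. For Mbp, Mobp, Opalin and Sox10 no difference between the tumor models passed the test. The 95% intervals ran from -0.55 to 0.32 for Mbp, from -0.44 to 0.10 for Mobp, from -0.23 to 0.01 for Opalin and from -0.15 to 0.14 for Sox10. Without mutated PB2, the tumor highest for Mobp, Mobp differed by -0.32 (adjusted p = 0.0245), and without deleted PB11 Opalin differed by -0.13 (adjusted p = 0.0445). On the deposited values all 9 genes were called lower in the mutated tumors, with differences from -0.85 to -1.80. So were 18392 of the 19938 genes, with a median difference over all genes of -0.86. All the mutated tumors lie in the low range of array medians, so this scale and the genotype cannot be told apart.

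**Figure D2:**
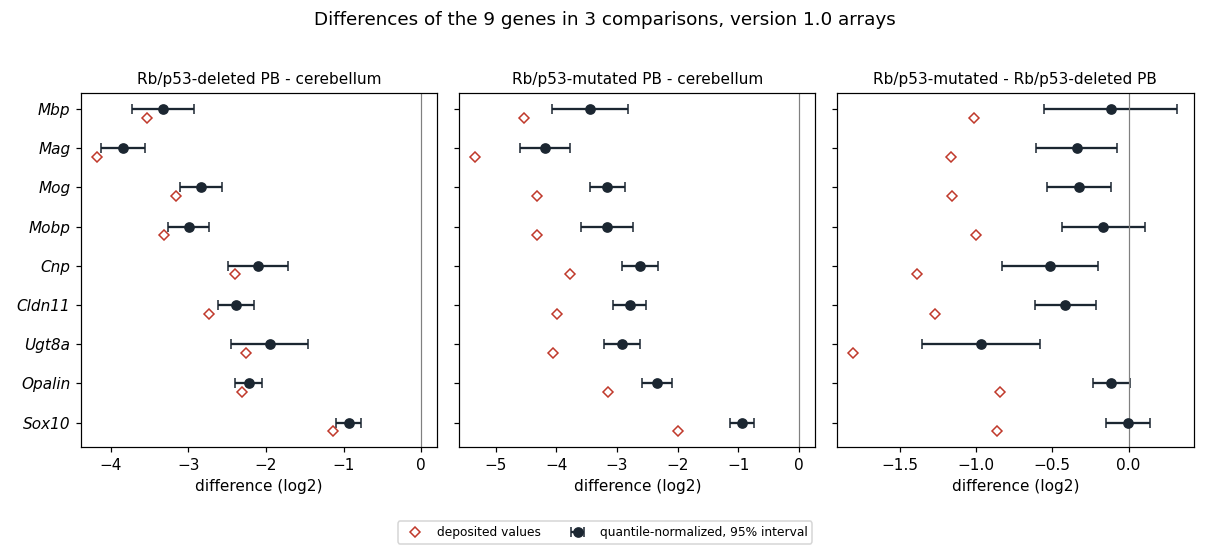
Difference in log2 signal (x axis) of each gene (y axis) in 3 comparisons on version 1.0 arrays; filled circles give quantile-normalized values with 95% intervals and open diamonds the deposited values. Against cerebellum every interval lies below 0, while between the tumor models Mbp, Mobp, Opalin and Sox10 have intervals that include 0.

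Within the tumors the 9 genes did not rise and fall as a block. With each value taken as the deviation from its own group mean over the 16 tumors on version 1.0 arrays, 24 of the 36 pairs of genes had a positive correlation, with a median r of 0.21, and 6 pairs exceeded 0.5. Correlated with the mean of the other 8 genes, Mag (r = 0.70), Mbp (0.67) and Mobp (0.57) were the most alike. Mog (0.43), Cldn11 (0.40) and Cnp (0.25) came next, and Ugt8a (0.06), Sox10 (-0.10) and Opalin (-0.11) showed little relation. Opalin was below the lower quartile of signals in all 16 tumors. These values describe 16 arrays that share a normalization, and no p is given for them.

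No tumor was the highest for every gene. Deleted PB10 was the highest of its group for Mog, Mobp, Opalin and Sox10, whereas PB11 was highest for Mag and Cnp and lowest for Opalin and Sox10. Mutated PB2 was the highest of its group for Mbp, Mag, Mog, Mobp and Cldn11, and mutated PB1 the lowest for Mbp, Mag, Mog and Cldn11. Mean levels of markers of other cerebellar cells were also highest in PB11 among the deleted tumors, at 8.62 for 15 astrocyte genes (lowest 7.85, median 8.17), 9.50 for 15 granule neuron genes (8.88 and 9.02) and 8.08 for 9 Purkinje cell genes (7.20 and 7.34). The cerebellum samples were at 10.90 to 11.01, 12.11 to 12.13 and 11.96 to 12.00 on these lists. PB11 also shares the wide interquartile range of the deposited cerebellum arrays, and the part of these markers and of that scale in its Mag and Cnp values was not tested. With the set of arrays as a block, the difference rests on PB11 alone against cerebellum, and the spread comes from the other arrays. Cnp then differed by -1.23 in place of -2.10, Mag by -3.31 and Sox10 by -1.18, given here as values of a single tumor.

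**Figure D3:**
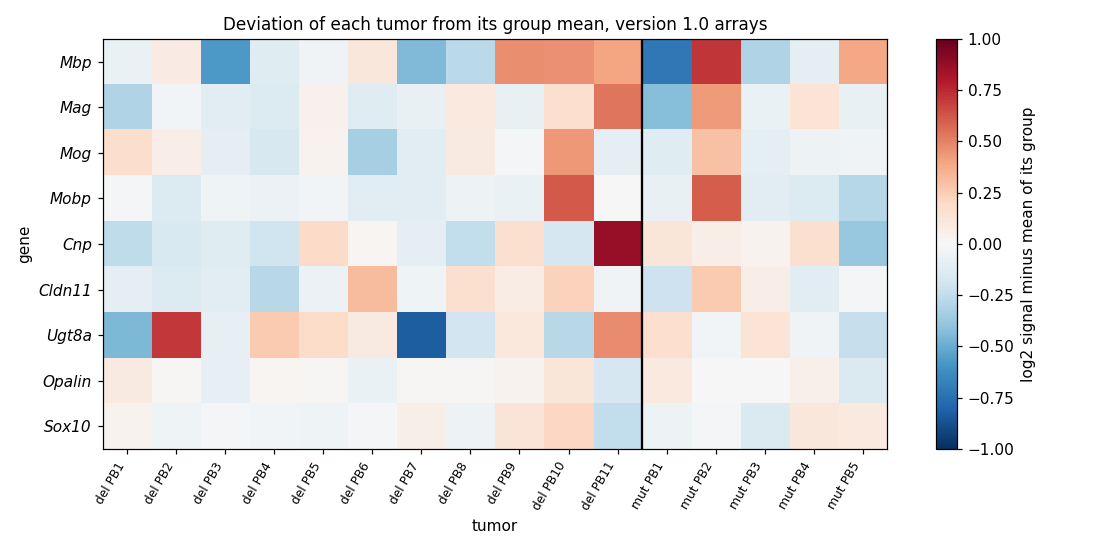
Deviation of each tumor from its own group mean (colour, log2 signal, from -1 in blue to 1 in red) for the 9 genes (rows) in 11 Rb/p53-deleted and 5 Rb/p53-mutated PBs (columns, split by the line). No column is red throughout: deleted PB10 is raised for Mobp and Mog, PB11 for Cnp and Mag, and mutated PB2 for Mbp and Mobp.

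The 8 genes whose deviations followed the mean of the 9 most closely over the same 16 tumors were Mapk10 (r = 0.92), Lce1f (0.90), Gad1 (0.89), Tmem59l (0.89), Tubb4a (0.89), Nat8l (0.88), Nap1l5 (0.87) and Gnal (0.87). Mapk10 encodes a neuronal JNK kinase, Gad1 a GABA-synthesizing enzyme and Tubb4a a brain tubulin. Set against cerebellum, all 8 were also lower in the Rb/p53-deleted tumors, Tubb4a by 6.31 and Lce1f by 0.39 on the log2 scale. Over all genes 27.7% were lower in that comparison. Gad1 is also among the Purkinje cell genes of the list above. Over the 6 Dicer1-deleted tumors r was 0.85 for Mapk10, 0.67 for Gnal, 0.54 for Gad1 and Tubb4a and 0.48 for Lce1f. For Tmem59l, Nat8l and Nap1l5 it was -0.68, -0.68 and -0.65. The 8 most alike over those 6 tumors were Gm7265, Arhgap35, Gm10228, Vmn1r13, Cilp2, Slc20a2, Mir551b and Sco1. Their r was 0.99 or above over only 6 arrays, and over the 16 tumors it was between -0.51 and 0.25.

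Other genes of the lineage were taken from lists that hold none of the 9. Over all genes, 27.7% were lower and 25% higher in the Rb/p53-deleted tumors against cerebellum. Of 27 measured genes for myelin structure and lipid enzymes, 21 were lower and 2 higher in the Rb/p53-deleted tumors, set against cerebellum, with a median difference of -1.49. The largest were Gjc3, a connexin, at -4.68, Ermn, a cytoskeletal protein of myelin, at -3.68, Cntn2, an adhesion molecule of the node region, at -3.53, and Tspan2, a tetraspanin, at -3.11. The higher ones, named after their values were seen, were the carbonic anhydrase Car2 (1.31, adjusted p = 1.79e-08) and the creatine-synthesis enzyme Gamt (0.81, adjusted p = 0.000423). Gamt lost its call on the deposited values (0.47, adjusted p = 0.0581) and with arrays centred on their medians (0.50, adjusted p = 0.0387). Of 11 transcription factors of the lineage 8 were lower and none higher (1 higher without deleted PB2), among them Olig1 (-1.72), Olig2 (-1.70), Sox8 (-1.53) and Nkx2-2 (-1.47). Of 12 genes of oligodendrocyte precursors 9 were lower, with Ptprz1 at -3.33 and Bcan, which astrocytes also express, at -2.20, and Cspg4, the NG2 proteoglycan that pericytes also carry, was higher by 1.29 (adjusted p = 2.63e-08; also named after its value was seen). Pcdh15, a protocadherin that sensory cells also use, stood at 1.34 (adjusted p = 0.0135) and was not called. It passed the threshold with median centring, with the mean of its clusters and without deleted PB3, PB5 or PB11 (adjusted p from 0.00578 to 0.00911). Each of these settings gave 2 higher precursor genes. Under the other 17 of 22 alternatives Pcdh15 stayed uncalled, with differences down to 0.35.

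The Rb/p53-mutated PBs gave 21 lower and 2 higher myelin genes, 8 lower transcription factors and 9 lower and 2 higher precursor genes against cerebellum. Over all genes 27.6% were lower and 23.8% higher in that comparison. Gjc3 differed by -4.03, Olig1 by -2.14 and Myrf, a transcription factor that drives myelin genes, by -1.06. The higher precursor genes were Pcdh15 at 2.54 (adjusted p = 0.000802) and Cspg4 at 0.87 (adjusted p = 0.00254). Cspg4 lost its call without cerebellum sample 2 (adjusted p = 0.0142) or 3 (adjusted p = 0.0107), which left 1 higher precursor gene. On the deposited values that count was also 1, no myelin gene was higher, 24 were lower, and all 11 transcription factors were lower. Over all 19938 genes 15077 were lower and 999 higher on that scale.

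Between the tumor models 5 of the 27 myelin genes were lower and 3 higher in the mutated tumors, shares below the 25.9% and 20.7% of all genes. Without mutated PB2 or PB5, 1 was higher, and on the deposited values 24 were lower and none higher. Of all 19938 genes 18392 were lower and 147 higher on that scale. Among those called were Car2 (-0.53), Tmem125 (-0.46), Gjc3 (0.65) and Ppp1r14a (0.61), and Car2 lost its call with arrays centred on their medians (-0.24, adjusted p = 0.12). Of the 11 transcription factors 3 were lower and 2 higher, with Sox5 at -0.69, Zfp488 at -0.56 and Nkx2-2 at 0.44, and on the deposited values all 11 were lower. The call of Gjc3 was lost without mutated PB2 (0.38, adjusted p = 0.0871) or PB5 (0.58, adjusted p = 0.0636). On the deposited values the sign turned for Gjc3 (-0.19, adjusted p = 0.401), Ppp1r14a (-0.29, adjusted p = 0.176) and Nkx2-2 (-0.41, adjusted p = 5.51e-06).

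Genes of the other cell types that use Sox10 were counted too. Of 8 measured genes of Schwann cells and peripheral myelin 5 were above and 1 was below cerebellum in the Rb/p53-deleted tumors, and of 6 melanocyte genes 3 were higher and none lower, beside 25% higher and 27.7% lower over all genes. Pmp22, a peripheral myelin protein, was higher by 1.47, Egr2, a transcription factor of Schwann cells, by 1.39 and Dct, a pigment enzyme, by 1.61. In the Rb/p53-mutated PBs 3 Schwann cell genes were higher and none lower, and no melanocyte gene passed the test. On the deposited values 1 Schwann cell gene was higher and 3 were lower in these tumors, and 4 melanocyte genes were lower. On that scale 15077 of all 19938 genes were lower and 999 higher. The part of these cells in the Sox10 signal was not tested.

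Other cerebellar cell types were lower as well. In Rb/p53-deleted PBs 13 of 15 astrocyte genes, 12 of 15 granule neuron genes and all 9 Purkinje cell genes were lower than in cerebellum. Their medians were -3.29, -2.40 and -4.99 beside the -2.38 of the 9 oligodendrocyte genes, and 1 astrocyte gene was higher. Over all genes 27.7% were lower and 25% higher in this comparison. Of 14 genes of microglia and macrophages, by contrast, 8 were higher and 2 lower, and of 12 endothelial and pericyte genes 6 were lower and none higher. In the Rb/p53-mutated PBs the microglia genes were 8 higher and 2 lower, but 4 higher and 5 lower on the deposited values. Over all genes 23.8% were higher and 27.6% lower in these tumors. On the deposited values 999 of 19938 were higher and 15077 lower.

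**Figure D4:**
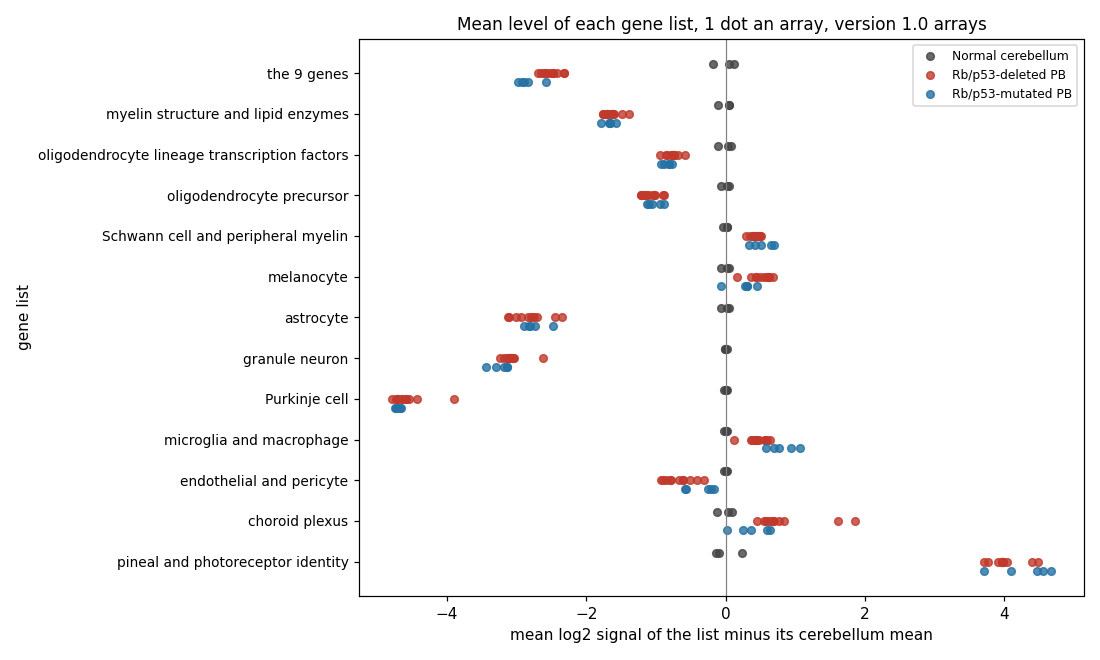
Mean log2 signal of each gene list (y axis) minus its mean in cerebellum (x axis) on version 1.0 arrays; each dot is 1 array of cerebellum, Rb/p53-deleted or Rb/p53-mutated PB. The 9 genes and the lists of the oligodendrocyte lineage, astrocytes and cerebellar neurons lie below 0 in every tumor, and the pineal and photoreceptor list lies above it.

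Sox10 binds, as other SOX proteins do, short motifs such as ACAAAG or its variant ACAATG. The RefSeq table of promoters (GRCm38.p6) held 7 of the 9 genes, and the 250 bases before the most upstream start of each were searched for both on either strand. On the opposite strand ACAAAG reads CTTTGT, while the variant reads CATTGT. They were found for 4 of the 7: 6 times for Mobp and 1 time each for Mag, Cnp and Opalin, and not for Mog, Cldn11 or Ugt8a. Of 27025 genes, 25.4% had at least 1 motif in the same window, and Mobp was the 1 gene with 6 or more. The Mobp window is printed whole to show this run of motifs, on the plus strand at chr9:120149492-120149741, with the windows around the single motif of Mag (chr7:30914957-30915016, minus strand), Cnp (chr11:100574745-100574804, plus strand) and Opalin (chr19:41077220-41077279, minus strand) for comparison. Capitals mark the motifs.
Mobp: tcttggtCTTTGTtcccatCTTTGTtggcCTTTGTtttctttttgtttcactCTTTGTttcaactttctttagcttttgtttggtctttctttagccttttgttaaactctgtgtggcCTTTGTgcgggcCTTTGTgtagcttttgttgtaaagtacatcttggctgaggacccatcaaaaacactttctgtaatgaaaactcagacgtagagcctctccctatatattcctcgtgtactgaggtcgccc
Mag: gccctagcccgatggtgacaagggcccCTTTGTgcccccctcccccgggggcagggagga
Cnp: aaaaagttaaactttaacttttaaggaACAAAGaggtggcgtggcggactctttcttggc
Opalin: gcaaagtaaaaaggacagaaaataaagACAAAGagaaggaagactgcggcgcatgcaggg
A match is a stretch of letters and not a measured binding site. Against cerebellum in the Rb/p53-deleted PBs, the genes with a match differed by -3.85 (Mag), -3.00 (Mobp), -2.22 (Opalin) and -2.10 (Cnp). Those without a match in the window differed by -2.84 (Mog), -2.38 (Cldn11) and -1.95 (Ugt8a). The part of the motifs in these differences was not tested.

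On the version 2.0 arrays the comparison asked what Rb loss added to the loss of Dicer1 and p53. No gene was called in limma at FDR 0.05, 0% in either direction, and the lowest adjusted p was 0.364, while 1941 of 22180 genes had an unadjusted p under 0.05. Among the 9 genes 1 did, Cldn11. It was at 6.56, 6.66 and 5.89 in the Dicer1/p53-deleted PBs and at 5.48, 5.84 and 5.50 in the Rb/Dicer1/p53-deleted PBs, a difference of -0.76 (SE 0.24, adjusted p = 0.483). The groups did not overlap, which was so for 7.42% of all genes in this direction, and the gap between Dicer1/p53-deleted PB3 and Rb/Dicer1/p53-deleted PB2 was small. Rb/p53-deleted PB12, at 5.50, was as low as the Rb/Dicer1/p53-deleted tumors.

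The other 8 genes had 95% intervals that include 0. The interval was -0.49 to 0.32 for Mbp, whose values were 5.21, 5.73 and 5.44 in the Dicer1/p53-deleted and 5.35, 5.35 and 5.44 in the Rb/Dicer1/p53-deleted PBs. It was -0.65 to 0.52 for Mag, -0.30 to 0.48 for Mobp, -0.75 to 0.11 for Ugt8a and -0.21 to 0.66 for Sox10. Mag, Mog and Opalin lay below the array median in every tumor on these arrays. Sox10 did so in 3 Dicer1/p53-deleted and 2 Rb/Dicer1/p53-deleted PBs, and Mbp and Ugt8a in 1 tumor each. Mag was below the lower quartile in 2 Dicer1/p53-deleted PBs, 2 Rb/Dicer1/p53-deleted PBs and PB12. Opalin was below it in 1, 3 and PB12 likewise. Whether such low signals exceed background was not tested. Cnp was the most variable, at 6.52, 5.52 and 5.84 against 7.16, 5.60 and 6.35, and its interval of -0.55 to 1.37 leaves a difference of over 2-fold possible. Replicate 1 had the highest Cnp in both groups.

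PB12 lay within the range of the 6 Dicer1-deleted tumors for Mbp (5.62), Mag (3.96), Mog (5.04), Mobp (5.36), Cnp (5.76), Cldn11 (5.50), Ugt8a (5.62) and Sox10 (5.44), and just below it for Opalin (3.77 against 3.82 to 4.32). A single tumor allows no test. Over the 6 Dicer1-deleted tumors 19 of 36 pairs of genes correlated positively, with a median r of 0.04. Of the related lists no gene passed the test. The myelin genes with the smallest p were Hapln2 (-0.37) and Ermn (-0.45), and among transcription factors it was Sox9 (0.84, adjusted p = 0.465), which astrocytes also express. Without cerebellum on these arrays, the 9 genes of the Dicer1-deleted tumors were not compared with brain tissue, so not even a direction is known.

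**Figure D5:**
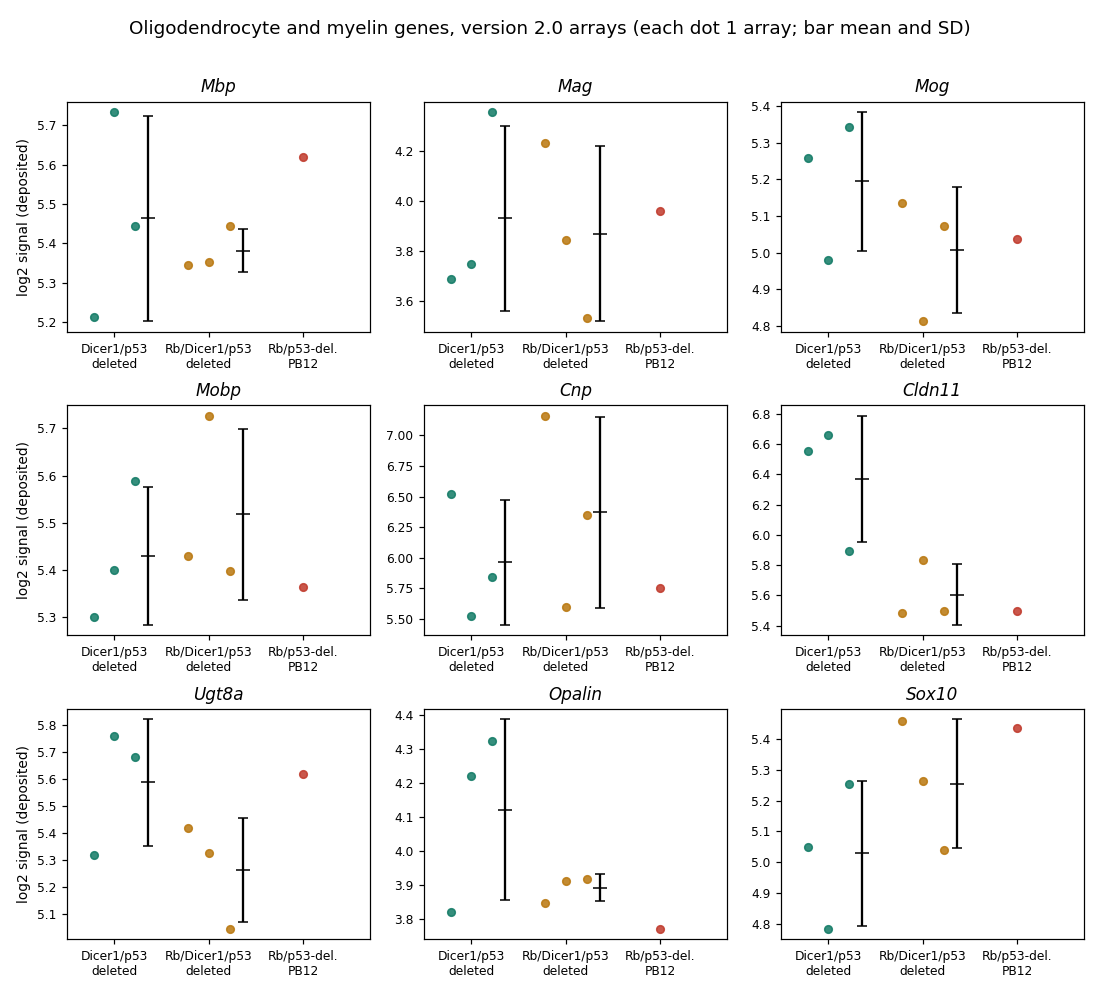
Log2 signal as deposited (y axis, own range in each panel) of the 9 genes on version 2.0 arrays in 3 Dicer1/p53-deleted PBs, 3 Rb/Dicer1/p53-deleted PBs and Rb/p53-deleted PB12; each dot is 1 array and the bar gives the mean and SD where there are 3. The groups overlap for every gene but Cldn11, whose Rb/Dicer1/p53-deleted values of 5.48 to 5.84 lie below the Dicer1/p53-deleted ones.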

How the data were processed

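RNA of 23 PBs and 3 cerebellum samples was extracted with Trizol and hybridised to Affymetrix Mouse Gene 1.0 ST or 2.0 ST arrays. The deposited log2 values are RMA signals per transcript cluster that the authors made with Affymetrix Expression Console. RMA corrects background, quantile-normalizes and summarizes probes. The program's version, and whether all arrays went through RMA in a single run, are not given in the sources used here. Clusters were named through the platform annotation: 21789 of 35556 clusters (version 1.0) and 23521 of 41345 (version 2.0) had 1 symbol, and genes with several clusters were taken at the cluster with the highest mean. The 19 version 1.0 columns were quantile-normalized and the version 2.0 values used as deposited. Groups followed the sample titles and were compared with limma 3.58.1 (R 4.3.3; lmFit, eBayes, Benjamini-Hochberg over all named genes) at FDR 0.01 against cerebellum, as in the study's methods, and 0.05 between tumor models. The fits were tested on simulated data. The tables were tested separately. The 9 genes and all lists were chosen with earlier results of these data known. Besides the 9, up to 4 genes per list and comparison were named, by the largest differences past the threshold. A list without a call gave its 2 smallest p at most. Alternatives were the deposited values, median centring, quantile normalization of the version 2.0 arrays, the mean of a gene's clusters, a filter on dim genes, trended robust eBayes, all groups in 1 fit, each array left out, the replicate number and the set of arrays as blocks. The number of arrays limits the precision. The files give no detection calls. Promoter windows came from RefSeq.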

Additional observations from a re-analysis of the deposited data

Results flagged for a closer look

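Among the 5 Rb/p53-mutated PBs, 3 values stood apart from the other 4 tumors by Dixon's criterion, which chance meets in about 1 in 20 groups: Mog in PB2 at 7.222, Mobp in PB2 at 7.495 and Cnp in PB5 at 8.697. PB2 was high and PB5 low.

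The differences of the tumor models from cerebellum were unequal for 5 genes by limma's test between the models, since the cerebellum arrays are shared. They were -0.3392 for Mag, -0.3271 for Mog, -0.5176 for Cnp, -0.4143 for Cldn11 and -0.9692 for Ugt8a (mutated minus deleted, log2). It is the same test as given above, in which 25.9% of all genes were called lower. Mag lost its call without mutated PB1, PB3 or PB5, or deleted PB8 or PB10. Mag, Cnp and Cldn11 lost theirs with the replicate number as a block.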

How the results depend on the processing

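Against cerebellum, all 9 genes were lower for both Rb/p53 models under every alternative run. With the set of arrays as a block, the deleted arm rests on PB11 alone. That block was not run for the mutated tumors, whose set holds no cerebellum array. Without each array in turn, genes called ranged from 3975 to 5679 higher and 4600 to 5952 lower (deleted), and from 3550 to 4805 higher and 4307 to 5594 lower (mutated). With the set of arrays as a block they were 2868 higher and 3081 lower (deleted). On deposited values 999 were higher and 15077 lower (mutated). Between the models, 147 genes were then higher, 18392 lower and 9 of the 9 genes lower. After the filter on dim genes the counts were 2270, 3078 and 3. That filter removed Mag, Mog, Mobp and Opalin, so fewer genes were tested. With each array left out, 4 to 6 of the 9 genes were lower. Median centring turned Opalin to 0.0171 and left Mag uncalled (adjusted p = 0.0591).

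Samples that share a number in their titles had r from -0.21 to 0.29 over 14 pairs. In 3 of the 14 the best match had the same number. Whether the numbers mark paired samples cannot be told from this. With the replicate number as a block, 2 of the 9 genes were lower in mutated PBs, Mag, Cnp and Cldn11 losing their calls (adjusted p = 0.131, 0.0683 and 0.0526), and Mbp (0.0276) and Sox10 (0.0120) changed sign. Against cerebellum the block left all 9 genes lower.

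Signs also changed for uncalled genes when 1 array was left out: Mbp between models ran from -0.296 to 0.0627 and Sox10 from -0.0322 to 0.0332, and with Rb loss added to Dicer1/p53 deletion Mbp from -0.208 to 0.0530, Mag from -0.243 to 0.152 and Mobp from -0.0156 to 0.169. On deposited values Gjc3 (-0.19), Ppp1r14a (-0.29) and Nkx2-2 (-0.41) changed sign in the mutated tumors against the deleted ones. Against cerebellum Gamt (-0.18), Car2 (-0.21) and Cspg4 (-0.0968) did so in the mutated tumors. In the Rb/Dicer1/p53-deleted comparison no setting called a gene.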
